A study of Mus musculus with 3 samples.

Results

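The collagen genes described here are the 30 genes of the deposited tables whose symbols follow the collagen alpha chain pattern (Col, a number, a and a number), out of 16181 genes listed. They were measured by Drop-seq, a droplet method that tags the 3′ end of each transcript with a cell barcode and a unique molecular identifier (UMI), in the cerebella of 3 mice at P7 (postnatal day 7). The mice had the genotype Math1-Cre/Eed fl/fl (*Eed* cKO), were untreated and were of the C57BL/6 background, so every library carries the deletion and no control genotype was analysed here. The Cre is driven by the *Math1* (*Atoh1*) promoter, which is active in cerebellar granule neuron progenitors (CGNPs), and it removes *Eed*, a core subunit of the PRC2 chromatin complex. Fibroblasts, pericytes and endothelial cells do not belong to that lineage. Each library came from the cerebellar tissue on 1 side of the brain of 1 mouse, dissociated with papain, and the replicate below is the mouse.

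Collagens are triple-helical proteins of the extracellular matrix, each built from 3 alpha chains. Fibril-forming collagens such as types I, III and V give connective tissue its tensile strength, type IV collagen forms the network of basement membranes around vessels and under the pia, and smaller families decorate fibrils, span the plasma membrane or sit at the border of basement membranes. In the brain, fibrous collagen is largely confined to the meninges and the adventitia of larger vessels, while the capillary wall rests on a basement membrane shared by endothelial cells, pericytes and astrocyte endfeet.

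The members comprise 10 fibril-forming chains, 4 basement membrane chains (*Col4a1*, *Col4a2*, *Col4a5* and *Col4a6*), 3 beaded filament chains (*Col6a1*, *Col6a2* and *Col6a3*), 6 fibril-associated chains, 2 multiplexins (*Col15a1* and *Col18a1*), 3 transmembrane collagens (*Col13a1*, *Col23a1* and *Col25a1*) and 2 others (*Col26a1* and *Col28a1*). In GENCODE annotation of GRCm38, the build that matches the mm10 named in the submitters' processing notes, several members are neighbours. *Col4a1* (chromosome 8, 11198423 to 11312826, minus strand) and *Col4a2* (chromosome 8, 11312805 to 11449287, plus strand) start head to head, and their first exons overlap by 22 bases. *Col4a6* (chromosome X, 141165403 to 141474076, minus strand) and *Col4a5* (chromosome X, 141475385 to 141689234, plus strand) also start head to head, 1309 bases apart. *Col3a1* (chromosome 1, 45311538 to 45349706, plus strand) and *Col5a2* (chromosome 1, 45374321 to 45503282, minus strand) end tail to tail, while *Col1a1* (chromosome 11, 94936224 to 94953042, plus strand) and *Col1a2* (chromosome 6, 4504814 to 4541544, plus strand), whose products join in type I collagen, lie on different chromosomes. *Col9a3* overlaps *Tcfl5*, and *Col18a1* overlaps *Slc19a1*, on the opposite strand, and whether the counting used strand is not given in the sources used here.

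Start regions are shown for chains that share a start or stood together in the vascular cells below. They are RefSeq sequences of GRCm38.p6, 5′ to 3′ on the strand of the gene, cut to the longest stretch upstream of the RefSeq start that holds no GENCODE exon, and 23 of the 30 members had an entry. The first is chr8:11312805-11312826 on the plus strand, the stretch in which *Col4a1* and *Col4a2* overlap, printed whole in capitals. The others are chr6:4505370-4505492 (plus) of *Col1a2*, chr1:45311288-45311537 (plus) of *Col3a1*, chrX:141475169-141475384 (plus) of *Col4a5* and chrX:141474077-141474326 (minus) of *Col4a6*, in which capitals mark matches, on either strand, to the CCAAT box, to the GC box spelled GGGCGG or to the TATA box spelled TATAAA.
Col4a1 and Col4a2 overlap: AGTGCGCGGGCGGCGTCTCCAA
Col1a2: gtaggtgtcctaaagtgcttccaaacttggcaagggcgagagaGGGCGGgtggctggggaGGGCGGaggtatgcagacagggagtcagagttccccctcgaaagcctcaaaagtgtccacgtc
Col3a1: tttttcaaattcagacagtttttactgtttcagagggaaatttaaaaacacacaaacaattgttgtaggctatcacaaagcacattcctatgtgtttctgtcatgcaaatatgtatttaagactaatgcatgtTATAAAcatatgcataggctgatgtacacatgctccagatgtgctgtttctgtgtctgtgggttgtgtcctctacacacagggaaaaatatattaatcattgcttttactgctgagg
Col4a5: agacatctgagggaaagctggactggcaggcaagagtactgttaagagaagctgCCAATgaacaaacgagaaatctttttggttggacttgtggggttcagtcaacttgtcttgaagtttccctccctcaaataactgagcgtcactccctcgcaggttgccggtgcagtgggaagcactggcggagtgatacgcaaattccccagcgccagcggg
Col4a6: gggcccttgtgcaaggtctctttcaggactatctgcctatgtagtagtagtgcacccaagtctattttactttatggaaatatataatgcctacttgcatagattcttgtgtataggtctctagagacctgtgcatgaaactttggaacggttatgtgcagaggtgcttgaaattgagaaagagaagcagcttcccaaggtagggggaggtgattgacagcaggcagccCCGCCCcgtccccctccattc
The *Col1a2* stretch held 2 GGGCGG matches and neither of the other motifs, and 13.3% of all 32851 promoters of the table held GGGCGG in the same 123-base window. *Col3a1* held 1 TATAAA match, found in 12.4% of all promoters over the same 250 bases. *Col4a5* held 1 CCAAT match (30.5% of promoters in the same 216-base window) and *Col4a6* held 1 GGGCGG match on the opposite strand (32.7% over 250 bases). The *Col1a2* stretch ended 126 bases and the *Col4a5* stretch 35 bases upstream of the RefSeq start. The bases between were not searched, so a motif missing from these stretches may still lie near the start. These are matches of letters, not measured binding sites.

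The 3 libraries held 711290 to 1734000 UMIs in 936 to 1401 barcodes, and 547 to 918 cells per mouse passed the filters, 2373 in all, with median depths of 857 to 1408 UMIs per cell. No barcode was shared between libraries. Each table lists at 0 every gene seen in fewer than 3 of its own barcodes, so 18 collagen genes had UMIs in every library, 10 were listed at 0 in 1 library and 2 in 2 libraries. Such a 0 is a filtered value and was left out of means. Cells were clustered without the collagen genes and without the pathway genes given below, and clusters were named from markers (for instance *Dcn*, *Lum* and *Slc6a13* for vascular fibroblasts, and *Rgs5* and *Kcnj8* for pericytes). The named groups were 47 vascular fibroblast-like, 29 pericyte-like, 52 endothelial-like, 75 myoid-like, 110 astrocyte-like, 119 oligodendrocyte-like and 49 myeloid-like cells, with 350 proliferating CGNP-like, 522 differentiating CGNP/CGN-like (CGN, cerebellar granule neuron) and 343 interneuron-like cells, the last 3 of which are pooled below as neural cells. Clusters of 317, 186 and 174 cells stayed unnamed and outside the neural cells. Myoid-like cells are muscle-like cells led by *Myl1*, *Actc1* and *Myog*. All 18 measured myoid markers had UMIs in them, 13 of 14 vascular fibroblast markers in the vascular fibroblast-like cells, and all 11 pericyte and 13 endothelial markers in their groups. *Eed* itself gave 2 to 19 UMIs in each named group, and the 3′ tags need not lie in the deleted part, so its counts do not check the genotype.

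Collagen transcripts came from few cells. The kept cells held 2632 collagen UMIs, 677, 472 and 1483 in mice 1, 2 and 3. Vascular fibroblast-like cells made up 1.98% ± 0.428 (SD, n = 3 mice) of cells and held 47.9%, 58.3% and 56.7% of all collagen UMIs, a mean of 54.3% ± 5.61. Pericyte-like cells (1.21% of cells) held 7.81% ± 1.48 and endothelial-like cells (2.29% of cells) held 5.43% ± 3.14. The neural cells, 51.5% of cells, held 14.2% ± 3.13, and myoid-like cells, 3.23% of cells, held 1.36% ± 0.265. In every mouse the vascular fibroblast-like share of collagen UMIs exceeded that of any other group.

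**Figure D1:**
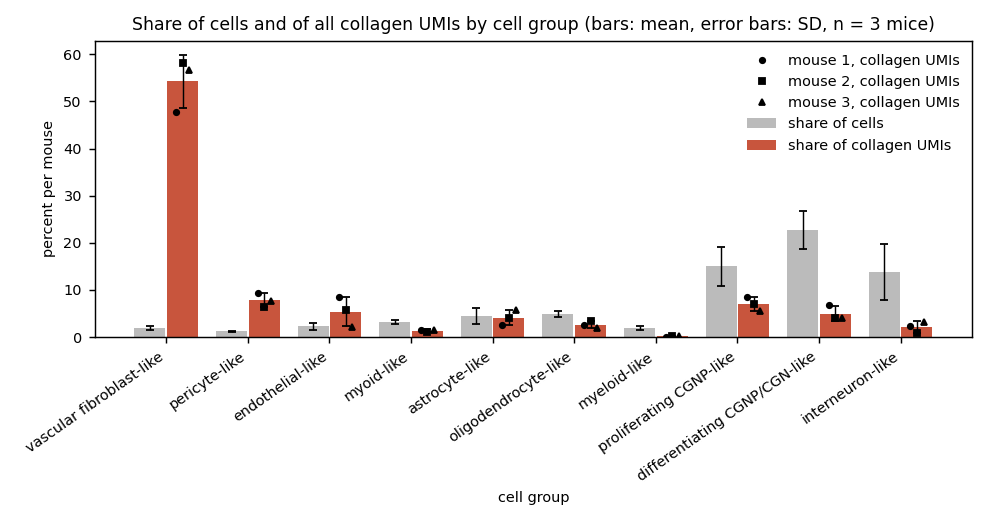
Share of cells (grey bars) and share of all collagen UMIs (red bars) in each named cell group, as mean percent per mouse with SD over 3 mice; black symbols are the single mice. Vascular fibroblast-like cells, 1.98% of cells, held 54.3% of collagen UMIs, whereas the 3 CGNP, CGN and interneuron groups held less collagen than their share of cells.

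As a share of their own transcripts, collagens took 1.31%, 2.04% and 3.08% of UMIs in vascular fibroblast-like cells of mice 1, 2 and 3, and 0.627%, 0.513% and 0.753% in pericyte-like cells. The share was 0.176%, 0.148% and 0.130% in endothelial-like cells and 0.0250%, 0.0247% and 0.0280% in myoid-like cells, close to the 0.0233%, 0.0197% and 0.0266% of neural cells. These 3 vascular groups did not overlap with each other or with the neural cells in any mouse. Among single cells, all 47 vascular fibroblast-like cells had at least 2 collagen UMIs, with a median of 16 and a maximum of 203, and the median cell gave 1.41% of its UMIs to collagens. The highest cell alone held 203 of the 841 collagen UMIs of that group in mouse 3, and 99 of 275 in mouse 2. In contrast, 55 of 75 myoid-like cells and 12 of 52 endothelial-like cells had no collagen UMI.

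The make-up of the collagen UMIs differed between the vascular groups. Fibril-forming chains were 71.4% ± 8.16 of collagen UMIs in vascular fibroblast-like cells, 31.7% ± 11 in pericyte-like cells and 10.7% ± 5.20 in endothelial-like cells (3′ UMI counts, which carry no term for transcript length). Basement membrane chains were 18.2% ± 3.58, 62.8% ± 9.52 and 75.0% ± 3.62. The 2 multiplexins, which sit at basement membrane borders, were 13.2% ± 1.40 of the endothelial-like collagen UMIs. For both classes the vascular fibroblast-like values of the 3 mice did not overlap with those of the other 2 groups, while pericyte-like and endothelial-like cells overlapped across mice for basement membrane chains (54.8% to 73.3% against 71.9% to 78.9%). Within mice the basement membrane share was higher in endothelial-like cells in 3 of 3, by a mean of 12.2 ± 9.91 percentage points (exact two-sided permutation test over the mice, p = 0.25, the smallest that 3 pairs allow).

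**Figure D2:**
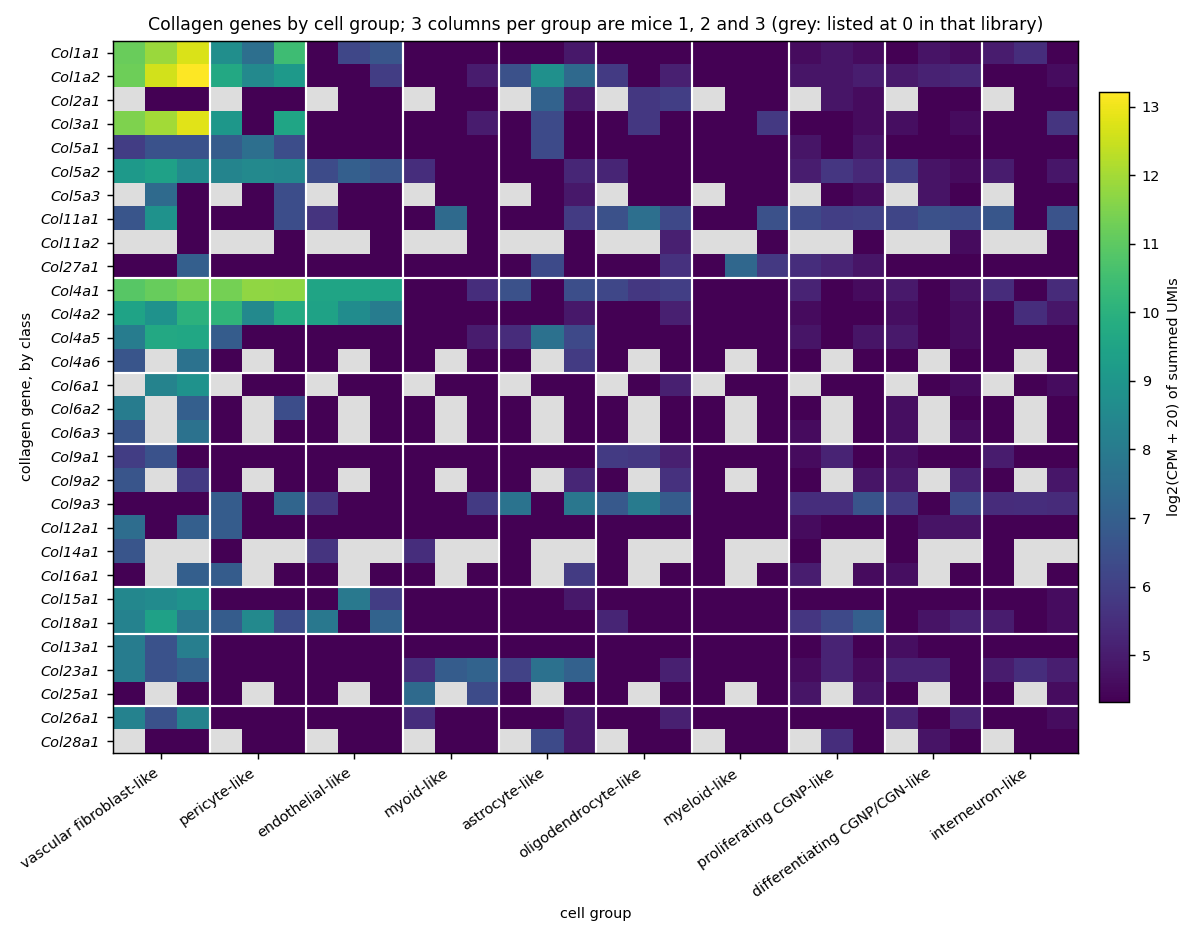
Level of each of the 30 collagen genes in each named cell group, as log2(CPM + 20) of the UMIs summed per mouse; each group has 3 columns, mice 1 to 3, and grey marks a gene listed at 0 in that library. The bright block at the top left is *Col1a1*, *Col1a2* and *Col3a1* in vascular fibroblast-like cells, and *Col4a1* and *Col4a2* extend across the 3 vascular groups.

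To ask which collagens each vascular cell type carries beyond the neural cells, the UMIs of each group were added up within a mouse, and the sums were compared by edgeR's quasi-likelihood test (p adjusted after Benjamini and Hochberg over every gene tested). Beside the neural cells, 12 of the 30 members were called higher in vascular fibroblast-like cells, where 11.2% of all 3781 genes tested were. A gene enters this test only if it has enough counts in a group, so the 12 members that entered were already high in the fibroblasts and the count over them is not read as support. In the other comparisons below the number of members that entered is given, and the count over them is not read as support either. With no filter on low counts, 17 of the 30 members were called higher, where 2.94% of 15562 genes were.

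The largest differences were in the chains of types I and III. *Col1a1*, which encodes the alpha 1 chain of type I collagen, stood at 2273, 3700 and 6676 CPM (counts per 1000000 of the UMIs summed over the group in that mouse) in vascular fibroblast-like cells of mice 1, 2 and 3, against 3.88, 10.5 and 2.79 CPM in neural cells. *Col1a2*, the partner chain, stood at 2394, 6216 and 9464 CPM against 7.76, 10.5 and 12.6. *Col3a1*, the chain of type III collagen that often shares fibrils with type I, stood at 2841, 3996 and 7116 CPM against 1.94, 0 and 12.6. Mouse 3 was highest and mouse 1 lowest for all 3 genes, and no neural value came near any fibroblast value. The log2 fold changes were 9.59 ± 0.44 (SE, adjusted p = 2.11e-26), 9.0 ± 0.42 (adjusted p = 3.84e-26) and 9.32 ± 0.44 (adjusted p = 3.84e-26), higher in 3 of 3 mice. The vascular fibroblast-like cells also shared these transcripts cell by cell, since 36 of 47 had UMIs of both type I chains and 34 of *Col3a1* as well.

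*Col1a1* was seen in 83.0% of the 47 vascular fibroblast-like cells (39 cells, exact binomial 95% interval 69.2% to 92.4%) and in 0.576% of the 1215 neural cells (7 cells, 0.232% to 1.18%). The median depths were 1235 and 1005 UMIs, and with each cell thinned to 500 UMIs the mean shares per mouse were 76.4% ± 15 and 0.144% ± 0.125. The neural share is taken here as the background of the assay. No myoid-like, oligodendrocyte-like or myeloid-like cell had a *Col1a1* UMI (0 of 75, 119 and 49 cells, for which a floor of 3 counts allows shares of cells with a UMI of up to 4.00%, 2.52% and 6.12%).

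The basement membrane chains followed. *Col4a1*, the alpha 1 chain of the common type IV network, stood at 1907, 2220 and 2751 CPM in vascular fibroblast-like cells, against 15.5, 0 and 11.2 CPM in neural cells (log2 fold change 7.63 ± 0.38, adjusted p = 4.76e-25, edgeR). *Col4a2*, its obligate partner, stood at 690, 444 and 1027 CPM against 3.88, 3.51 and 4.18 (7.34 ± 0.52, adjusted p = 1.80e-18). *Col4a5*, a chain of the second type IV network, stood at 243, 814 and 770 CPM against 7.76, 0 and 4.18 (6.76 ± 0.57, adjusted p = 1.84e-15). Its head-to-head neighbour *Col4a6*, printed above with it, had 2 and 5 UMIs in vascular fibroblast-like cells of mice 1 and 3 and none in neural cells, and was listed at 0 in the library of mouse 2. It entered only the fit without a filter, where the log2 fold change was 7.25 ± 1.51 (adjusted p = 6.53e-05), and from the pooled counts its level was at least 54.1-fold higher than the 3 UMIs that 0 in the neural cells allows. That bound was 40.9-fold without mouse 1 and 55.4-fold without mouse 2, and without mouse 3 the 2 UMIs left gave no bound. The name of the vascular fibroblast-like cells comes from markers, and their place in vessels or meninges was not tested. Markers of pericytes, endothelial cells and astrocytes were also above the neural level in them. The 11 pericyte markers summed to 1907, 3034 and 2714 CPM, against 35.1 to 83.5 CPM in neural cells, with UMIs for 6 of 11 and *Rgs5*, *Kcnj8*, *Cspg4*, *Higd1b* and *Atp13a5* at 0. The 13 endothelial markers summed to 1664, 1332 and 1394 CPM, against 69.7 to 85.4 CPM, with UMIs for 5 of 13 and *Cldn5*, *Flt1*, *Tek*, *Ly6c1*, *Slco1a4*, *Egfl7*, *Esam* and *Ly6a* at 0. The 11 astrocyte markers summed to 4626, 4588 and 4365 CPM, against 306 to 474 CPM, with UMIs for 9 of 11 and *Slc1a2* and *Aldoc* at 0. The part of the markers that were present in the type IV result was not tested.

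Further chains were higher in these cells. *Col15a1*, a multiplexin, stood at 325, 370 and 440 CPM in vascular fibroblast-like cells and at 0, 0 and 1.39 CPM in neural cells (log2 fold change 8.30 ± 0.65, adjusted p = 1.54e-16, edgeR). Pericyte-like cells had no *Col15a1* UMI in any mouse, and endothelial-like cells had 0, 4 and 1. *Col5a2*, a fibril-forming chain that joins type I fibrils, stood at 528, 666 and 367 CPM against 23.3, 17.6 and 11.2 (4.75 ± 0.49, adjusted p = 2.59e-12). *Col18a1*, the multiplexin whose cleavage releases endostatin, stood at 284, 666 and 220 CPM against 17.5, 28.1 and 43.2 (3.36 ± 0.52, adjusted p = 5.41e-07), the smallest of the 12 log2 differences.

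The transmembrane collagens *Col13a1* and *Col23a1* and the small collagen *Col26a1* rested on few UMIs. *Col13a1* had 6, 1 and 7 UMIs in vascular fibroblast-like cells (243, 74.0 and 257 CPM) and 1, 2 and 0 in neural cells (log2 fold change 6.32 ± 0.67, adjusted p = 7.43e-12, edgeR). *Col26a1* had 7, 1 and 8 (284, 74.0 and 293 CPM) against 3, 0 and 5 (5.32 ± 0.60, adjusted p = 6.08e-11), and *Col23a1* had 6, 1 and 3 (243, 74.0 and 110 CPM) against 5, 5 and 4 (3.84 ± 0.63, adjusted p = 1.59e-06). Mouse 2, the shallowest library, had 1 UMI of each. The 3 type VI chains, which form beaded filaments, had 16 (*Col6a1*), 9 (*Col6a2*) and 7 (*Col6a3*) UMIs in vascular fibroblast-like cells and 2, 1 and 3 in neural cells, each with 1 library listed at 0. They and *Col12a1* (7 UMIs against 4) were called only in the fit without a filter, which takes a listed 0 as a count, with adjusted p from 3.31e-12 to 0.00114.

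**Figure D3:**
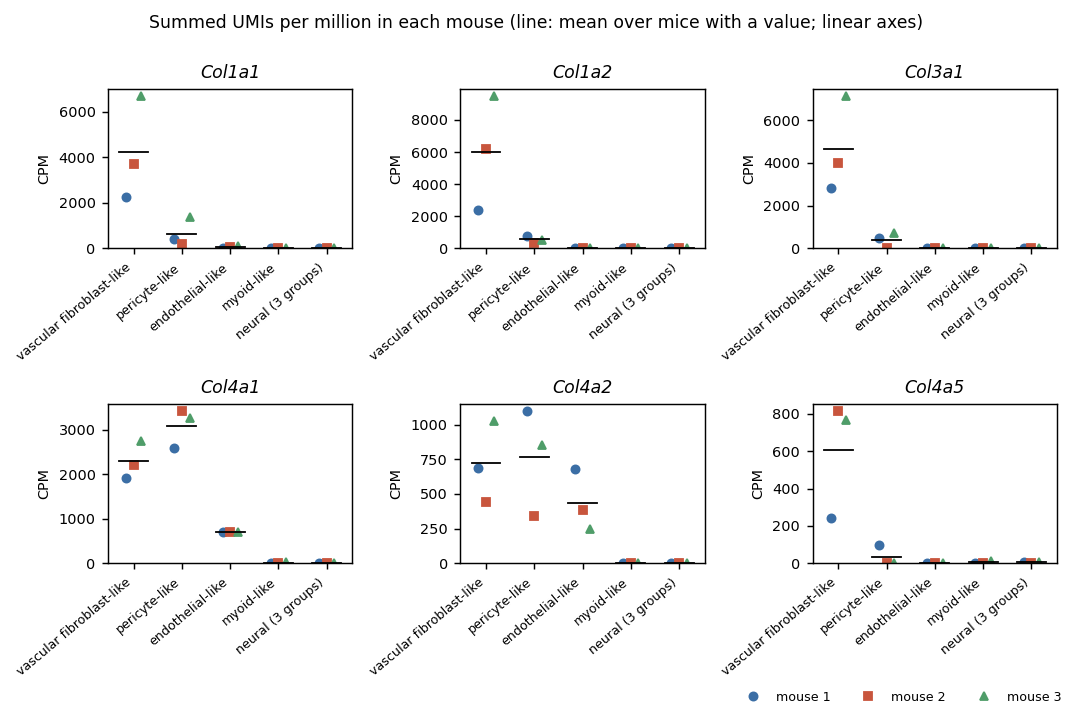
CPM of the summed UMIs of 6 collagen genes in each mouse (symbols) with the mean (line), on linear axes, for the vascular fibroblast-like, pericyte-like, endothelial-like, myoid-like and neural cells. The type I and III chains stand highest in vascular fibroblast-like cells in every mouse, *Col4a1* stands highest in pericyte-like cells, and *Col4a5* is seen mainly in vascular fibroblast-like cells.

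In pericyte-like cells, the mural cells of capillaries, type IV collagen led. Against neural cells 5 of the 30 members were called higher, the only 5 that entered the test, where 6.04% of all 3396 genes tested were. With no filter on low counts 6 of 30 were called higher, where 1.70% of 15505 genes were. *Col4a1* stood at 2588, 3418 and 3272 CPM, with a log2 fold change of 7.84 ± 0.41 (adjusted p = 3.25e-58, edgeR). *Col4a2* stood at 1095, 342 and 851 CPM (7.26 ± 0.58, adjusted p = 1.34e-29). *Col4a1* UMIs were in 25 of 29 pericyte-like cells (86.2%, exact 95% interval 68.3% to 96.1%) and in 0.988% of neural cells, at median depths of 753 and 1005 UMIs, and after thinning the mean shares were 74.2% ± 8.44 and 0.433% ± 0.375.

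Pericyte-like cells also held fibril-forming chains at a lower level than the vascular fibroblast-like cells. *Col1a1* stood at 398, 171 and 1374 CPM (4, 1 and 21 UMIs), so mouse 3 set most of it, with a log2 fold change over neural cells of 7.0 ± 0.58 (adjusted p = 8.86e-28, edgeR). *Col1a2* stood at 796, 342 and 524 CPM (5.43 ± 0.57, adjusted p = 6.94e-18) and *Col5a2* at 299, 342 and 327 CPM (3.94 ± 0.65, adjusted p = 2.24e-07). *Col3a1*, with 5, 0 and 11 UMIs, was called only without the filter (5.16 ± 0.69, adjusted p = 2.58e-11). Of the 14 vascular fibroblast markers 7 had UMIs in pericyte-like cells, at a summed 1025 to 1294 CPM against 20395 to 25531 CPM in the vascular fibroblast-like cells. *Dcn*, a proteoglycan of that list, gave 6 UMIs beside 26 of *Col1a1* in pericyte-like cells and 365 beside 288 in vascular fibroblast-like cells, and *Lum* gave 0 and 54. Of 5 smooth muscle markers, which mark the other mural cell type, 4 had UMIs in pericyte-like cells, at a summed 1095, 2563 and 654 CPM against 16.7 to 24.6 CPM in neural cells, with 8, 10 and 1 *Acta2* UMIs and *Myh11* at 0. Of the 13 endothelial markers 8 had UMIs in pericyte-like cells, at a summed 796, 342 and 720 CPM against 69.7 to 85.4 CPM in neural cells. *Cldn5*, *Kdr*, *Tek*, *Ly6c1* and *Slco1a4* were at 0. The part of these marker lists in the pericyte-like results, the type IV result included, was not tested.

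Set directly against pericyte-like cells, the vascular fibroblast-like cells were higher in type I and III collagen, while *Col4a1* and *Col4a2* did not pass the test. Only 182 genes could be tested between these small groups, and 5 of the 30 members entered the test. Of the 30 members 3 were called higher, where 12.1% of genes tested were. The log2 differences were 3.30 ± 0.47 for *Col1a2* (adjusted p = 8.69e-11, edgeR), 3.17 ± 0.48 for *Col3a1* (adjusted p = 1.74e-09) and 2.38 ± 0.45 for *Col1a1* (adjusted p = 1.82e-06), each higher in 3 of 3 mice. *Col4a1* was lower in vascular fibroblast-like cells in all 3 mice (2293 ± 427 against 3093 ± 443 CPM), and that difference of -0.49 ± 0.39 did not pass the test (adjusted p = 0.452). *Col4a2* differed by -0.19 ± 0.46 (adjusted p = 0.877) with the mice split in direction. Without a filter 5 of 30 members were called higher, where 0.628% of 10345 genes were, with *Col15a1* and *Col4a5* added (adjusted p = 0.0117 and 0.00329).

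Endothelial-like cells, the lining of the vessels, were called higher than neural cells for 2 of the 30 members, the only 2 that entered the test. Over all 3647 genes tested 13.3% were called higher. Without a filter 3 of 30 members were called higher, where 3.82% of 15565 genes were. *Col4a1* stood at 711, 711 and 692 CPM in mice 1, 2 and 3 (log2 fold change 6.06 ± 0.46, adjusted p = 3.14e-12, edgeR). *Col4a2* stood at 680, 383 and 244 CPM (6.74 ± 0.57, adjusted p = 3.72e-11). *Col15a1*, with 0, 4 and 1 UMIs, was the member added without the filter (5.50 ± 1.53, adjusted p = 0.00539). *Col3a1* had no UMI in endothelial-like cells, *Col1a1* had 0, 1 and 2, and *Col18a1* had 7, 0 and 3. Of the 11 pericyte markers 7 had UMIs in endothelial-like cells, at a summed 1113, 219 and 2810 CPM in mice 1, 2 and 3, against 35.1 to 83.5 CPM in neural and 18616 to 27096 CPM in pericyte-like cells. *Rgs5* gave 95 of these UMIs, *Pdgfrb*, *Notch3*, *Anpep* and *Atp13a5* were at 0, and the part of these markers in the type IV result was not tested. In mouse 2 these cells carried red cell transcripts (summed erythroid markers 48474 CPM, against 155 and 326 CPM in mice 1 and 3), and without mouse 2 *Col4a1* and *Col4a2* were still called.

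Between the vessel wall groups, *Col4a1* was higher in pericyte-like than in endothelial-like cells in 3 of 3 mice, by 2.15 ± 0.30 on the log2 scale (adjusted p = 1.63e-05, edgeR). It was the 1 of 30 members called higher, with 2 members that entered the test, where 11.7% of 240 genes tested were. *Col4a2* differed by 0.88 ± 0.49 (adjusted p = 0.219), higher in 2 of 3 mice. *Col4a1* made up 60.2% of the UMIs of both chains in endothelial-like cells (53 beside 35 UMIs, exact 95% interval 49.2% to 70.5%), 78.7% in pericyte-like cells (96 beside 26, 70.4% to 85.6%) and 74.9% in vascular fibroblast-like cells (152 beside 51, 68.3% to 80.7%). In single mice the ratio of *Col4a1* to *Col4a2* ran from 1.05 to 2.83 in endothelial-like cells and from 2.36 to 10 in pericyte-like cells, so the groups overlapped across mice. Within mice the *Col4a1* share of the UMIs of both chains was higher in pericyte-like cells in 3 of 3, by a mean of 16.8 ± 10.4 percentage points (exact two-sided permutation test, p = 0.25, again the smallest possible). Without a filter, the pericyte-like call for *Col4a1* just missed the threshold (adjusted p = 0.0520), and 3 of 30 members, *Col1a1*, *Col1a2* and *Col3a1*, were called higher (adjusted p from 0.000937 to 0.00227), where 0.479% of 10433 genes were.

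**Figure D4:**
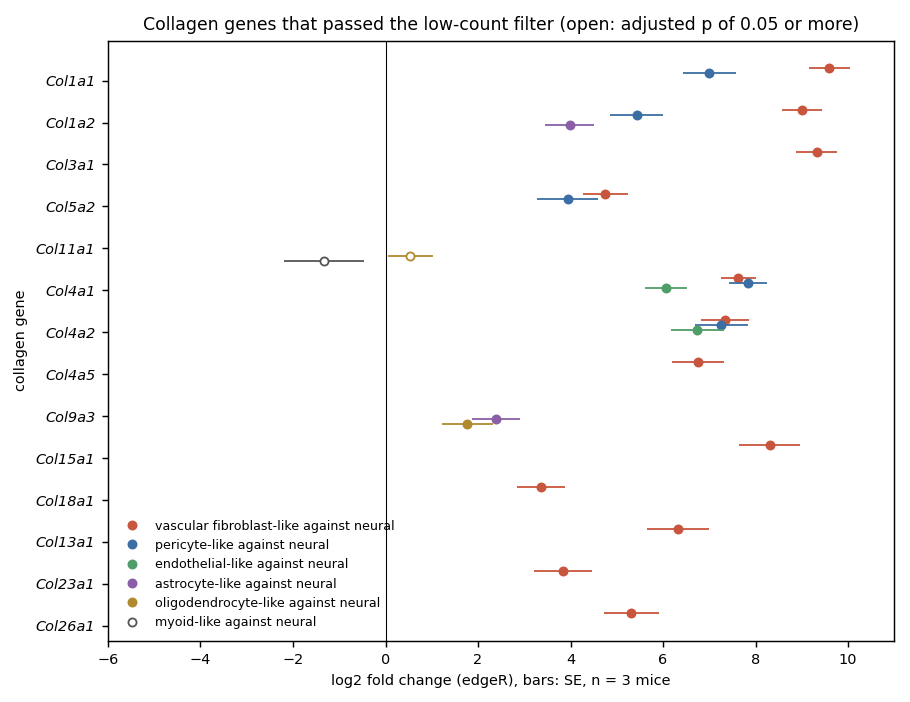
Log2 fold changes with SE (edgeR, 3 mice) of collagen genes in 6 cell groups against neural cells, for genes that passed the filter on low counts; filled points have an adjusted p under 0.05 and open points do not. Vascular fibroblast-like points reach 9.59 for *Col1a1*, pericyte-like and endothelial-like points centre on *Col4a1* and *Col4a2*, and the open points are *Col11a1* in oligodendrocyte-like and myoid-like cells.

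The myoid-like cells, a muscle-like population of the *Eed* cKO cerebellum, carried little collagen. They held 38 collagen UMIs in 75 cells (10, 5 and 23 in mice 1, 2 and 3). No *Col1a1* or *Col4a2* UMI was found in them, and *Col1a2*, *Col3a1* and *Col4a1* had 1, 1 and 2 UMIs, all in mouse 3. Against vascular fibroblast-like cells 5 of the 30 members were called lower, the only 5 that entered the test, where 26.7% of all 494 genes tested were. Without a filter 13 of 30 were called lower, where 2.09% of 12259 genes were. From pooled counts with a floor of 3 UMIs over the group, *Col1a1* was at least 209-fold and *Col4a2* at least 37.0-fold lower in myoid-like cells, and without mouse 3 these bounds were 55.7-fold and 12.1-fold. For the chains with 1 or 2 UMIs the ratio of pooled levels was 872 for *Col1a2* (exact 95% counting interval 156 to 34538), 692 for *Col3a1* (123 to 27407) and 165 for *Col4a1* (45.0 to 1377). Without mouse 3 these chains were at 0, and the floor then gives at least 75.2-fold, 65.2-fold and 40.5-fold. All 5 passed the test (adjusted p from 4.02e-12 to 2.01e-09, edgeR). The fibroblast markers in myoid-like cells summed to 4274 to 6731 CPM. *Igf2* gave 699 UMIs of this, and 8 of the 14 markers, *Dcn* and *Lum* among them, were at 0.

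Against neural cells, *Col11a1* was the only member with enough counts to be tested in myoid-like cells. This fibril-forming chain had 0, 3 and 0 UMIs there, against 31, 14 and 45 in neural cells, with a log2 fold change of -1.33 ± 0.87 (adjusted p = 0.295, unadjusted p = 0.136), so edgeR called 0 of 30 members and DESeq2 0, where 23.8% of all 3942 genes tested were called in either direction, and no member had an unadjusted p under 0.05. All 3 UMIs came from mouse 2, and without that mouse, with myoid-like cells at 0 UMIs, *Col11a1* was called lower (fitted log2 fold change -7.38, adjusted p = 0.0238, edgeR). Without a filter 2 of 30 members were called higher, where 2.83% of 15583 genes were. These were the transmembrane collagens *Col25a1*, which muscle is known to need for its motor innervation, and *Col23a1*, both described here after their values were seen.

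*Col25a1* (chromosome 3, 130131501 to 130599877, plus strand) had 6 and 5 UMIs in myoid-like cells of mice 1 and 3 (150 and 60.9 CPM), in 4 and 3 cells, and was listed at 0 in mouse 2. Neural cells had 2 and 3 UMIs in the same mice (3.88 and 4.18 CPM), and no other named group outside the neural cells had any. The log2 fold change without a filter was 4.19 ± 0.89 (adjusted p = 8.40e-05, edgeR), and the share of cells with a UMI in these 2 mice was 12.7% of 55 myoid-like cells (exact 95% interval 5.27% to 24.5%) and 0.433% of 923 neural cells (0.118% to 1.11%), at median depths of 1862 and 1075 UMIs. Thinned to 500 UMIs, the mean shares were 3.64% ± 0.0935 and 0. *Col23a1* had 1, 2 and 10 UMIs in myoid-like cells (25.0, 99.0 and 122 CPM), and 6 of the 10 in mouse 3 were in 1 cell. Its log2 fold change without a filter was 2.94 ± 0.70 (adjusted p = 0.000784), higher in 3 of 3 mice. A *Col23a1* UMI was seen in 10.7% of myoid-like and 1.07% of neural cells, at median depths of 1388 and 1005 UMIs, but in 0 and 0.443% ± 0.384 after thinning to 500 UMIs, so the thinned shares do not show the difference.

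In astrocyte-like cells 2 of the 30 members were called higher than in neural cells, where 12.3% of all 4454 genes tested were. Only these 2 members entered the test. At clustering resolution 0.4 no member was tested and at 1.2 only *Col1a2* was called, and with a mouse left out 1 (without mouse 3) to 4 (without mouse 2) were. *Col9a3*, a fibril-associated chain, stood at 191, 0 and 211 CPM (8, 0 and 22 UMIs) against 29.1, 14.1 and 54.4 CPM in neural cells (log2 fold change 2.40 ± 0.52, adjusted p = 0.00136, edgeR), higher in 2 of 3 mice. *Col1a2* stood at 71.8, 416 and 144 CPM (3, 7 and 15 UMIs) against 7.76, 10.5 and 12.6 (3.98 ± 0.53, adjusted p = 2.96e-06), higher in 3 of 3 mice. Set against all other cells in place of the neural cells, vascular fibroblast-like cells included, the *Col1a2* difference was 0.19 (adjusted p = 0.841).

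*Col1a2* in astrocyte-like cells came without its partners. These cells had 25 *Col1a2* UMIs beside 1 of *Col1a1* and 1 of *Col3a1*, so *Col1a2* made up 96.2% of the UMIs of both type I chains (exact 95% interval 80.4% to 99.9%), against 58.2% in vascular fibroblast-like cells (401 beside 288 UMIs, 54.4% to 61.9%) and 40.9% in pericyte-like cells (18 beside 26, 26.3% to 56.8%). Of the 14 vascular fibroblast markers 9 had UMIs in astrocyte-like cells, at a summed 431, 773 and 393 CPM in mice 1, 2 and 3, against 334, 334 and 255 CPM in neural cells, and 5, *Dcn* among them, were at 0. The sum, like *Col1a2*, was highest in mouse 2, and the part of these markers in the *Col1a2* result was not tested. A *Col1a2* UMI was seen in 15 of 110 astrocyte-like cells (13.6%, 7.84% to 21.5%) and in 1.32% of neural cells, at median depths of 1048.5 and 1005 UMIs, and in 6.83% ± 9.47 and 0.621% ± 0.267 after thinning, so the thinned share varied between mice as much as its mean. No astrocyte-like cell had both type I chains. In mouse 2, 1 cell held 3 of the 7 *Col1a2* UMIs, and in mouse 3, 1 cell held 5 of the 15.

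Without a filter 6 of 30 members were called higher in astrocyte-like cells, where 4.76% of 15685 genes were, and 1 lower, where 5.55% were. *Col23a1* had 2, 3 and 12 UMIs (47.8, 178 and 115 CPM; log2 fold change 3.1 ± 0.65, adjusted p = 7.92e-05, edgeR). The type IV chains *Col4a5* (1, 3 and 6 UMIs), *Col4a1* (3, 0 and 7) and *Col4a6* (0, listed at 0, and 4) were the rest of those added, with adjusted p from 0.00234 to 0.0328. *Col18a1* had no UMI in 110 astrocyte-like cells against 48 in neural cells and was the member called lower (adjusted p = 0.0322). By the floor of 3 counts it was at least 1.72-fold lower, but without mouse 3 the floor gives no lower level.

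In oligodendrocyte-like cells 1 of the 30 members was called higher than in neural cells, where 9.26% of all 4105 genes tested were. Only 2 members entered the test, *Col9a3* and *Col11a1*. *Col9a3* stood at 91.3, 238 and 99.2 CPM (5, 7 and 7 UMIs) against 29.1, 14.1 and 54.4 CPM, above the neural cells in 3 of 3 mice (log2 fold change 1.77 ± 0.54, adjusted p = 0.0300, edgeR). This call was lost without mouse 1 (1.82, adjusted p = 0.147), without mouse 2 (1.08, adjusted p = 0.314) and with all other cells as the reference (1.62, adjusted p = 0.0509). *Col11a1* stood at 73.0, 170 and 56.7 CPM against 60.2, 49.2 and 62.8 (0.53 ± 0.48, adjusted p = 0.537) and the groups overlapped. *Col9a3* had no UMI in the 47 vascular fibroblast-like cells, for which the floor of 3 counts allows a share of cells with a UMI of up to 6.38%.

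Between the neural groups, collagen counts were low and only *Col11a1* could be tested. It stood at 55.6, 57.3 and 56.8 CPM in CGNP/CGN-like cells (proliferating and differentiating together) and at 84.1, 0 and 75.9 CPM in interneuron-like cells (log2 fold change -0.20 ± 0.44, adjusted p = 0.849, edgeR), where 12.9% of all 4974 genes tested were called in either direction. Between proliferating CGNP-like cells (57.8, 42 and 46.3 CPM) and differentiating CGNP/CGN-like cells (52.6, 71.7 and 66.5 CPM) it differed by -0.32 ± 0.39 (adjusted p = 0.586), where 28.4% of 4705 genes were called. In both comparisons edgeR and DESeq2 called 0 members, and no member had an unadjusted p under 0.05.

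*Col18a1* (chromosome 10, 77052178 to 77166548, minus strand) had too few counts for the filter of the main fit and was not called there. The single fit over all cell groups called it higher in proliferating cells, 1 member, where 23.4% of all genes were called in either direction. The tests that follow are from the fit without a filter. It had 8, 7 and 26 UMIs in proliferating CGNP-like cells (33.1, 58.9 and 109 CPM) and 0, 1 and 4 in differentiating CGNP/CGN-like cells (0, 7.96 and 15.7 CPM), with no overlap and a log2 difference of 2.91 ± 0.62 (adjusted p = 8.77e-05, edgeR), 1 of 2 members called higher, where 5.61% of 15086 genes were. The other was *Col27a1*, a fibril-forming chain, with 6, 2 and 2 UMIs against none (4.77 ± 1.6, adjusted p = 0.0314, at least 3.18-fold higher by the floor of 3 counts and 1.43-fold without mouse 1). *Col18a1* was also the 1 member called higher in CGNP/CGN-like than in interneuron-like cells (2.78 ± 0.86, adjusted p = 0.0254), where 4.04% of 15406 genes were. The share of cells with a *Col18a1* UMI was 10.5% ± 7.58 of proliferating and 0.981% ± 1.17 of differentiating cells at median depths of 1471.5 and 904 UMIs, and 2.54% ± 2.41 and 0.413% ± 0.361 after thinning to 500 UMIs, and the SDs of the thinned shares overlap. Depth, which was higher in the proliferating cells, moved with the unthinned share, and its part in that share was not tested apart from the thinning. Myoid-like cells, like astrocyte-like cells, had no *Col18a1* UMI (0 of 75 myoid-like cells, up to 4.00% by the floor of 3 counts).

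**Figure D5:**
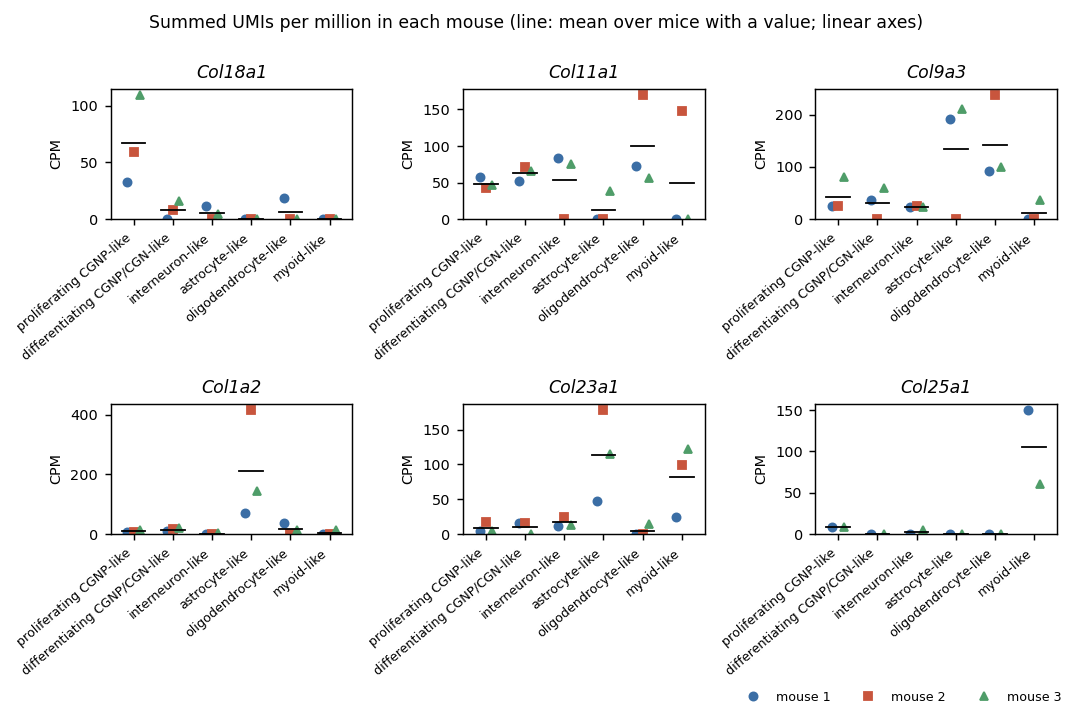
CPM of the summed UMIs of 6 collagen genes in each mouse (symbols) with the mean (line), on linear axes, for 3 neural groups, 2 glial groups and the myoid-like cells. *Col18a1* is highest in proliferating CGNP-like cells in every mouse among these groups, *Col25a1* has values in mice 1 and 3 only because its library of mouse 2 lists it at 0, and *Col9a3* is at 0 in astrocyte-like cells of mouse 2.

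Over the 13 clusters and groups, named and unnamed, 21 of the 30 members had their highest mean CPM in vascular fibroblast-like cells, and 16 of these rested on more than 3 UMIs there. *Col4a1* and *Col4a2* were highest in pericyte-like cells, *Col9a3* in oligodendrocyte-like cells and *Col25a1* in myoid-like cells. For *Col9a3* this order rested on mouse 2, where astrocyte-like cells had 0 UMIs. In mice 1 and 3 the astrocyte-like level was above the oligodendrocyte-like level. Adjacent levels often could not be told apart: for *Col4a2* the order pericyte-like, vascular fibroblast-like and endothelial-like (763 ± 384, 720 ± 293 and 436 ± 223 CPM) lay within the spread between mice, whereas for *Col1a1* vascular fibroblast-like cells (4216 ± 2247 CPM) stood above pericyte-like cells (648 ± 639 CPM) in every mouse. Of the 30 members 14 had fewer than 20 UMIs in all kept cells. Their order over the groups rests on these few counts.

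Genes that make, process and bind collagen were followed as 6 lists with 78 measured genes, described by counts. Over all genes tested, 11.2% were called higher than in neural cells in vascular fibroblast-like, 6.04% in pericyte-like and 13.3% in endothelial-like cells, and 23.8% were called in either direction in myoid-like cells. These shares are of genes that passed the filter on low counts, which few genes of the lists did, so the number tested is given with each count and no list is set apart from other genes by it. Of the 19 measured biosynthesis and secretion genes, 8 were tested in vascular fibroblast-like against neural cells, and 6 of these were called higher and none lower. They included *Serpinh1* (HSP47, the collagen chaperone of the endoplasmic reticulum; log2 fold change 4.47 ± 0.28, adjusted p = 8.65e-21, edgeR), *Fkbp10* (5.80 ± 0.61), the prolyl hydroxylase subunit *P4hb* (2.01 ± 0.41) and the lysyl hydroxylase *Plod2* (2.70 ± 0.56). In pericyte-like cells *Serpinh1* was the 1 gene called of 5 tested (3.91 ± 0.35), in endothelial-like cells *Serpinh1* (3.26 ± 0.29) and *Plod1* (3.97 ± 0.77) were called of 6 tested, and in myoid-like cells *Ppib* (1.16 ± 0.27) was called of 5 tested. *Serpinh1* was also higher in pericyte-like than in endothelial-like cells and lower in myoid-like than in vascular fibroblast-like cells, the same directions as *Col4a1* in the first comparison and the type I chains in the second.

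Of 12 measured genes of propeptide processing and cross-linking, *Pcolce* (procollagen C-proteinase enhancer) and *Sparc*, a collagen-binding matricellular protein, were the only genes tested and were called higher in vascular fibroblast-like cells (8.03 ± 0.54 and 6.14 ± 0.31) and in pericyte-like cells (7.15 ± 0.63 and 5.15 ± 0.37). *Sparc* alone was tested, and called higher, in endothelial-like (7.03 ± 0.33) and myoid-like cells (2.53 ± 0.41). Of 14 measured basement membrane partners, 5 of 6 tested were called higher in vascular fibroblast-like cells, led by *Nid2* (7.32 ± 0.60) and *Lama2* (7.15 ± 0.64), 3 of 3 tested in pericyte-like cells, led by the laminin chain *Lama4* (8.07 ± 0.66), and 2 of 2 tested in endothelial-like cells (*Nid1*, 4.65 ± 0.67, and *Agrn*, 2.22 ± 0.42). In myoid-like cells 1 was tested and did not pass.

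Of 9 measured collagen receptors 3 were tested in each vascular group and 2 in myoid-like cells, where neither passed. *Itgb1*, the integrin chain shared by the collagen-binding integrins, was called higher in all 3 vascular groups (1.65 ± 0.31 in vascular fibroblast-like, 2.53 ± 0.34 in pericyte-like and 2.45 ± 0.26 in endothelial-like cells). Its partner *Itga1* was called in pericyte-like (8.25 ± 0.61) and endothelial-like cells (6.19 ± 0.73), and the discoidin domain receptor *Ddr2* in vascular fibroblast-like cells (3.58 ± 0.64). *Ddr1* was called lower in endothelial-like cells (adjusted p = 0.0213). Of 11 measured turnover genes 4 were tested in vascular fibroblast-like cells. *Ctsk*, the collagen-degrading cathepsin K (7.24 ± 0.65), *Timp3* and *Mmp16* were called higher there, none of the 2 tested passed in pericyte-like or in endothelial-like cells, and *Timp3*, the 1 tested, was lower in myoid-like cells (-3.90 ± 0.98). Of 13 measured collagen-binding matrix genes, *Bgn* (6.80 ± 0.64) and *Fbln2* (1.92 ± 0.65) were tested and called higher in vascular fibroblast-like cells and *Fn1* (4.08 ± 0.64) in endothelial-like cells. No gene of this list had enough counts to be tested in pericyte-like or myoid-like cells.

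In astrocyte-like cells 1 biosynthesis gene of 6 tested (*Serpinh1*), 1 processing gene of 1 (*Sparc*), 3 receptors of 3, 3 turnover genes of 3, 2 basement membrane partners of 2 and 1 matrix gene of 1 were called higher than in neural cells and none lower, where 12.3% of all genes tested were called higher. In oligodendrocyte-like cells 1 receptor of 2 tested and 2 turnover genes of 3 were, where 9.26% of all genes were. None of the 6 biosynthesis genes tested there was called, nor the 1 basement membrane partner tested. Among the remaining comparisons, *Itgb1* was lower in vascular fibroblast-like than in pericyte-like cells, *Sparc* was lower in pericyte-like than in endothelial-like cells, *Serpinh1*, *Pcolce*, *Sparc* and *Itgb1* were lower in myoid-like than in vascular fibroblast-like cells, *Serpinh1* was higher and *Lamb1* lower in CGNP/CGN-like than in interneuron-like cells, and *Timp3* was lower in proliferating than in differentiating CGNP/CGN-like cells.

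Among the genes outside the collagens whose levels followed *Col1a1* most closely over the 39 sums (13 groups in 3 mice, which share libraries and depth) were *Vtn* (Pearson r = 0.953 of log2(CPM + 20)), *Pcolce* (0.946), *Slc6a20a* (0.933) and *Dcn* (0.917). Among collagens, *Col3a1* (0.908) and *Col1a2* (0.896) were nearest to it. For *Col4a1* its partner *Col4a2* was nearest (0.943), and the nearest genes outside the collagens were *Bgn* (0.907), *Eva1b* (0.902), *Ifitm3* (0.902), *Vtn* (0.901) and *Cnn2* (0.881). These values describe which groups the genes share.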

How the data were processed

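UMI counts per gene and cell barcode were the values deposited by the authors for 3 libraries, 1 per mouse. Per the labels' processing notes, reads were aligned with STAR to mm10, and versions and strand setting are not given in the sources used here. Each deposited table lists a gene at 0 throughout when fewer than 3 of its barcodes hold it (tested on the files), which was treated as no value in means and as 0 in fits.

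Cells with at least 500 UMIs and 200 genes, at most 4 SD above the median and at most 10% mitochondrial UMIs were kept. Doublets were limited only by that upper limit, and no caller was run. Cells were clustered in Seurat 5.3.0 with sctransform 0.4.2 (R 4.3.3; 3000 variable genes, 15 principal components, resolution 0.8) without the 108 collagen and pathway genes, and a cluster was named "-like" from at least 3 markers. The UMIs of each group were added up within a mouse, and the sums were tested in 11 comparisons by edgeR 4.0.16 (quasi-likelihood, TMM, filterByExpr), with Benjamini-Hochberg adjustment over all genes and a threshold of 0.05. DESeq2 1.42.0, the unfiltered fit, other references and resolutions and leaving out each mouse were alternatives, and the fits were tested on simulated data. Both sums of a mouse come from 1 animal and library, so they are paired. Deviations from the group means of the sums of 1 mouse correlated by -0.0977 to 0.345.

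Values per mouse are given for members past the threshold or with at least 20 UMIs in a vascular, glial or myoid group, other members by counts and ranges, and pathway genes as the up to 4 with the smallest adjusted p per list. Members, lists and tests were chosen with earlier results of these data known. Genes named outside the rule are *Col25a1* and *Col23a1* in myoid-like cells, *Col18a1* and *Col27a1* in granule cells, the chains called only without a filter, and pathway genes of the last 7 comparisons. Intervals are exact binomial and, like the floor of 3 counts, cover counting error only. A gene of the likeness list and leading genes of an unnamed cluster are not reported here. The exact permutation tests of the paired UMI shares flipped the sign of each mouse's difference, and were added after the data were seen.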

Additional observations from a re-analysis of the deposited data

How the results depend on the processing

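Leaving the count filter out changed the number of collagen genes called to 2 in myoid-like against neural cells, 7 in astrocyte-like against neural, 5 in vascular fibroblast-like against pericyte-like, 3 in pericyte-like against endothelial-like, 13 in myoid-like against vascular fibroblast-like, 1 in CGNP/CGN-like against interneuron-like and 2 in proliferating against differentiating cells. With all other cells as the reference, 4 were called in each of the endothelial-like (2 lower), myoid-like (4 lower), astrocyte-like (2 lower) and oligodendrocyte-like (4 lower) comparisons, where 21.0%, 18.5%, 16.3% and 11.4% of all genes were called in either direction. One fit over all groups called 5 higher (endothelial-like), 4 higher (pericyte-like against endothelial-like), 8 lower (myoid-like against vascular fibroblast-like) and 1 higher (proliferating against differentiating), where 36.9%, 10.1%, 25.8% and 23.4% of all genes were called in either direction. In astrocyte-like cells no member was tested at resolution 0.4, and 1 was called at resolution 1.2. Without the upper limit on cells, 1 was called in proliferating against differentiating cells. The share of all genes called in these settings is not given here, so these counts are not set against it. Collagens took 0.0300% of myoid-like UMIs without the upper limit. The cause of these shifts was not tested.

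With each mouse left out in turn, the counts ran from 9 to 11 (vascular fibroblast-like against neural), 4 to 6 (pericyte-like), 2 to 3 (endothelial-like), 0 to 2 (myoid-like), 1 to 4 (astrocyte-like), 0 to 1 (oligodendrocyte-like), 1 to 2 (pericyte-like against endothelial-like), 5 to 7 (myoid-like against vascular fibroblast-like) and 0 to 1 (proliferating against differentiating). The shares of all genes called in either direction ran, in that order, from 9.85% to 15.8%, 5.63% to 7.88%, 14.9% to 22.5%, 13.6% to 18.1%, 14.2% to 16.2%, 8.96% to 11.1%, 22.7% to 29.4%, 35.5% to 43.3% and 18.6% to 23.9%. The *Col11a1* log2 difference in oligodendrocyte-like cells ran from -0.021 to 0.913 with each mouse left out, the lowest without mouse 2. *Col4a2* between vascular fibroblast-like and pericyte-like cells turned to 0.25 without a filter, 0.094 in the single fit and -0.143 to 0.211 with each mouse left out, the highest without mouse 1. *Col11a1* in myoid-like cells passed the threshold without mouse 2 (-7.38, adjusted p = 0.0238, edgeR). The fit with mouse as a replicate block, which respects the pairing, called 12, 5 and 2 members in vascular fibroblast-like, pericyte-like and endothelial-like cells against neural cells, where 10.8%, 5.15% and 13.2% of all genes were called higher, and changed no other member count, nor did DESeq2 or library size scaling. Restricting the test to genes above 0 in all 3 libraries was chosen after seeing the data and called 12 members in vascular fibroblast-like cells, where 11.7% of all genes were called higher. Resolution 0.4 named no differentiating group, so the comparison of proliferating with differentiating cells was not run there. The neural reference at that resolution held only proliferating CGNP-like and interneuron-like cells. The CGNP/CGN-like cells there were the proliferating ones alone. Depth limits the 14 members with under 20 UMIs.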

Other observations

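The unnamed clusters of 317, 186 and 174 cells held 4.67% ± 2.43, 3.32% ± 1.59 and 2.08% ± 1.96 (SD, n = 3 mice) of collagen UMIs, described here after their values were seen. The 317 cells carried *Atoh1*, *Sfrp1* and *Gli2* and, in mice 1 and 3, raised globin transcripts. Their erythroid markers summed to 7443, 429 and 14974 CPM in mice 1, 2 and 3, against 930, 882 and 187 CPM in neural cells. In these 317 cells *Col18a1* stood at 30.3, 87.6 and 157 CPM (4, 10 and 16 UMIs), near its 33.1, 58.9 and 109 CPM in proliferating CGNP-like cells. Barcodes that did not pass the cell filters, 1108 in all, held 390 of the 3022 collagen UMIs of the tables.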
